A study of Mus musculus with 15 samples.

Results

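The genes described here are those encoded by the mouse mitochondrial genome, chosen as every listed gene whose symbol starts with mt-. They were 19 of 16470 genes in the DMSO table and 18 of 16428 genes in the ibrutinib table, of 17029 genes listed in either. The 19 genes were 2 rRNA, 10 mRNA and 7 tRNA genes, and mt-Ta was listed only in DMSO. RNA was sequenced from cells of tumor-burdened spleens of C57Bl/6 mice, which were cultured for 24 h with ibrutinib, an inhibitor of the kinase BTK, or with its vehicle DMSO. All mice carried the Eμ-TCL1 transgene, in which a B-cell immunoglobulin enhancer drives the TCL1 oncogene, and Eμ-TCL1;p53R172H/+ mice also carried 1 Trp53 allele with the R172H change in its DNA-binding domain. In DMSO there were 3 Eμ-TCL1 libraries (replicates 2, 3 and 4) and 5 Eμ-TCL1;p53R172H/+ libraries (replicates 1 to 5), and in ibrutinib 3 Eμ-TCL1 libraries (replicates 1, 3 and 4) and 4 Eμ-TCL1;p53R172H/+ libraries (replicates 1, 3, 4 and 5). Ages are not given in the sources used here.

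The mitochondrial genome is a small circle that is transcribed on both strands into long precursors, which are cleaved into rRNAs, mRNAs and tRNAs, often at the tRNAs that lie between the other genes. Its mRNAs all encode subunits of the respiratory chain complexes or of ATP synthase, and its rRNAs and tRNAs serve the ribosomes that translate them. All other proteins of the mitochondrion, including the rest of these complexes, are encoded in the nucleus. A high mitochondrial share of a library is also commonly read as a sign of RNA or cell quality.

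Values are normalized CPM from which the sequencing depth cannot be recovered, so no counting error is given. A share is the percentage of a library's column sum, in which the scaling of the library cancels, and column sums ranged from 855661 to 1243999 in DMSO and from 756625 to 1359650 in ibrutinib. Trp53 was between 26 and 67 in DMSO and between 22.7 and 39.5 in ibrutinib, and the table does not separate its alleles. Libraries stood apart before any comparison. In DMSO Eμ-TCL1;p53R172H/+ replicates 1 and 2 and Eμ-TCL1 replicate 2 had summed values of 7 B-cell markers of 214.8, 192.5 and 465.2, where the other libraries had 2957 to 5566. For the 7 T-cell markers the sums of these Eμ-TCL1;p53R172H/+ libraries were 2008 and 2405, and no other DMSO library exceeded 486. Eμ-TCL1 replicate 2 held 28924 of 7 myeloid markers and 17255 of 6 erythroid markers, where no other DMSO library passed 248.5 and 71. In ibrutinib, Eμ-TCL1;p53R172H/+ replicate 1 had a B-cell sum of 46.4 and a T-cell sum of 1385, and Eμ-TCL1 replicate 1 had a B-cell sum of 372.5, a myeloid sum of 20530 and an erythroid sum of 14977. Eμ-TCL1;p53R172H/+ replicate 3 in ibrutinib also had a low B-cell sum, 511.6, below its T-cell sum of 832, with a myeloid sum of 1149, while B-cell sums of the remaining ibrutinib libraries were 1130 to 3254. Of these ibrutinib libraries, only Eμ-TCL1;p53R172H/+ replicate 1 was left out where libraries that stood apart were removed, unless Eμ-TCL1 replicate 1 is also named. Xist was 868.7 or more in all Eμ-TCL1 libraries, and at most 1.2 in Eμ-TCL1;p53R172H/+ replicates 1, 2 and 4 in DMSO and 1, 3 and 4 in ibrutinib, where the Y-linked Ddx3y was 75.1 or more. In bulk RNA, fewer cells of a type and less RNA per cell cannot be told apart.

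The rRNAs held most of the mitochondrial signal, and their share varied widely between libraries of 1 group. In DMSO the share of mt-Rnr1 (12S) and mt-Rnr2 (16S) together was 23.6%, 5.79% and 3.85% in Eμ-TCL1 replicates 2, 3 and 4. It was 3.69%, 5.84%, 7.91%, 5.61% and 8.39% in Eμ-TCL1;p53R172H/+ replicates 1 to 5. A single library, the myeloid-rich and erythroid-rich Eμ-TCL1 replicate 2, was thus far above the rest, and the other 2 Eμ-TCL1 libraries lay within the range of Eμ-TCL1;p53R172H/+. In ibrutinib the rRNA share was 21.2%, 33.0% and 7.56% in Eμ-TCL1 replicates 1, 3 and 4, and 5.43%, 19.4%, 39.0% and 38.7% in Eμ-TCL1;p53R172H/+ replicates 1, 3, 4 and 5. Both genotypes therefore held low and high libraries, and the groups overlapped. The T-cell-rich Eμ-TCL1;p53R172H/+ replicate 1 was the lowest of its table both in DMSO and in ibrutinib. In DMSO its 3.69% was close to the 3.85% of Eμ-TCL1 replicate 4, and the other T-cell-rich library, Eμ-TCL1;p53R172H/+ replicate 2, held 5.84%. The part of other cells in these shares was not tested.

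**Figure D1:**
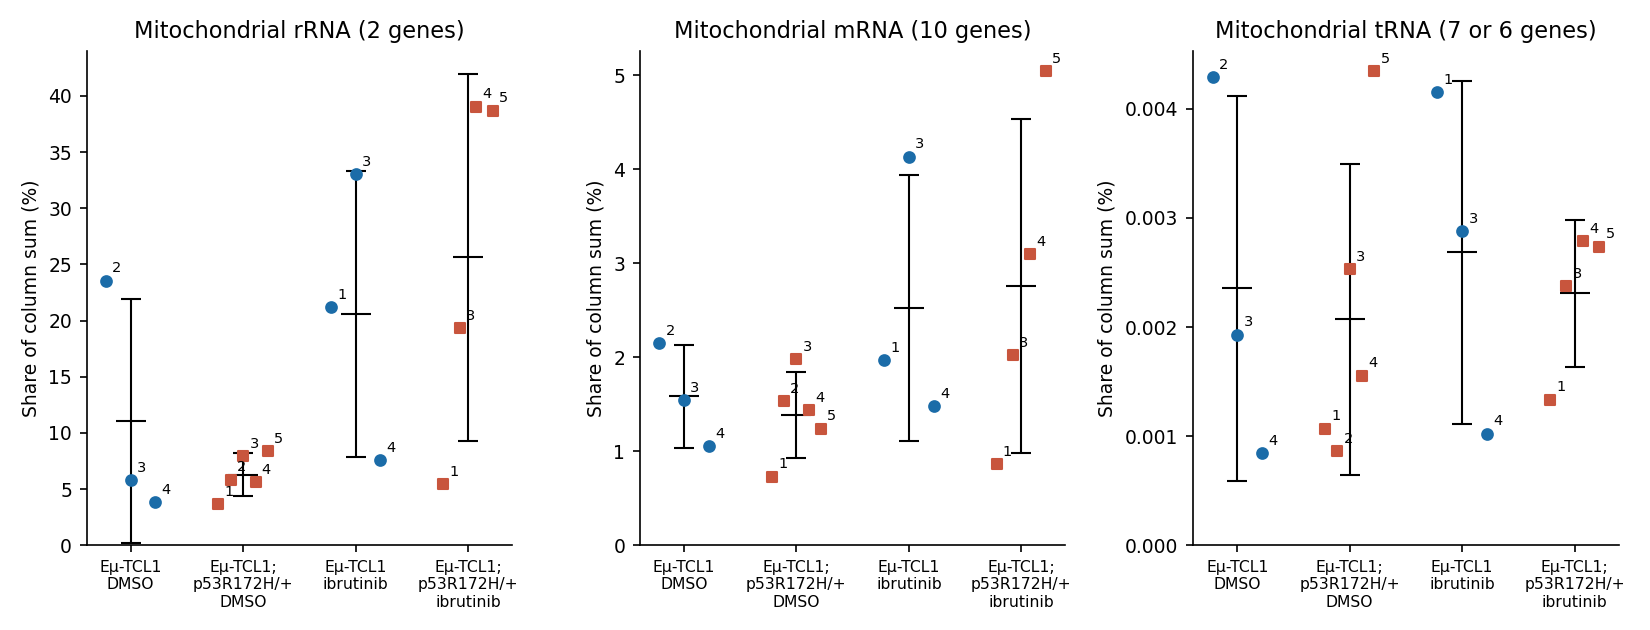
Share of each library's column sum, in percent, held by mitochondrial rRNA, mRNA and tRNA genes, by genotype and treatment. Points are libraries with their replicate number (circles, Eμ-TCL1; squares, Eμ-TCL1;p53R172H/+), and black bars are the mean and SD; the genotypes overlap in all 6 comparisons, and rRNA shares reach 23.6% in DMSO and 39.0% in ibrutinib.

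The mRNA genes held 0.729% to 2.15% of a library in DMSO and 0.863% to 5.04% in ibrutinib. The lowest value of each table was again Eμ-TCL1;p53R172H/+ replicate 1, while the T-cell-rich replicate 2 of that genotype held 1.53% in DMSO. The listed tRNA genes held between 0.000841% and 0.00434% in DMSO and between 0.00102% and 0.00415% in ibrutinib, or summed values of 7.2 to 49.2. The value of mt-Rnr2 was the highest of all genes in 6 of 8 DMSO libraries, the 2nd highest in the other 2, and the highest in all 7 ibrutinib libraries. The rank of mt-Co1, the core subunit of cytochrome c oxidase, was between 3 and 10 in every library. Non-polyadenylated nuclear RNAs were also high throughout, with Rn7sk between 16365 and 28844. How ribosomal RNA was handled in the library preparation is not given in the sources used here.

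In DMSO the Eμ-TCL1 libraries had a mean rRNA share of 11.1% ± 10.9 (SD, n = 3) and the Eμ-TCL1;p53R172H/+ libraries one of 6.29% ± 1.90 (SD, n = 5), a difference of -4.78 percentage points with a within-genotype SD of 6.46. In ibrutinib it was 20.6% ± 12.8 (SD, n = 3) and 25.6% ± 16.3 (SD, n = 4), a difference of 5.03 with a within-genotype SD of 15.0. Both differences were smaller than the spread between libraries. The DMSO difference changed sign to 2.49 without the 3 libraries that stood apart, and to 1.47 without Eμ-TCL1 replicate 2 alone. The ibrutinib difference was 11.8 without Eμ-TCL1;p53R172H/+ replicate 1, the library that stood apart, and 11.3 without Eμ-TCL1 replicate 3. It was -1.49 without Eμ-TCL1 replicate 4, and 0.560 and 0.675 without Eμ-TCL1;p53R172H/+ replicates 4 and 5. Taken as a percentage of the sum over genes that are not mitochondrial, it was 12.2. The mean mRNA share was 1.58% ± 0.549 and 1.38% ± 0.455 in DMSO and 2.53% ± 1.41 and 2.76% ± 1.78 in ibrutinib, in the same order of genotypes, and these too differed by less than their spread.

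Per kilobase of transcript, levels differed by several orders of magnitude among the rRNA and mRNA genes, though mt-Co1 lay near mt-Rnr1 in DMSO. The median of mt-Rnr2 (chrM:1094-2675, GRCm38) was 32727 per kb in DMSO and 113564 per kb in ibrutinib, and that of mt-Rnr1 (chrM:70-1024) was 7281 and 31345 per kb. Among the mRNAs, mt-Co1 (chrM:5328-6872) stood highest, with 6433 per kb in DMSO and 9264 per kb in ibrutinib, and it made up 56.4% to 85.2% of the mitochondrial mRNA signal of a library. It was followed by mt-Nd1 (1007 and 1460 per kb) and mt-Cytb (984 and 1229 per kb), a complex I subunit and the cytochrome b of complex III, whose ranges over libraries overlapped. The complex I subunits mt-Nd5 (506 and 704 per kb), mt-Nd4 (350 and 384 per kb) and mt-Nd2 (308 and 515 per kb) came next. The lowest of this series was mt-Nd6, at 119 and 184 per kb, which is the only mRNA gene on the other strand. Values of mt-Nd6 ranged from 6.5 to 196.4 in DMSO and from 4.3 to 344 in ibrutinib.

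The remaining 3 listed mRNAs were near 0. The cytochrome c oxidase subunit mt-Co2 (chrM:7013-7696) ranged from 0.2 to 2.2 in DMSO and from 0.3 to 3.5 in ibrutinib. The ATP synthase subunit mt-Atp6 (chrM:7927-8607) ranged from 0.1 to 1 and from 0 to 0.9, and mt-Co3 (chrM:8607-9390) from 0 to 2.1 and from 0.4 to 3.4. Their neighbour mt-Co1, whose product is part of the same enzyme as those of mt-Co2 and mt-Co3, ranged from 5716 to 18955 and from 5148 to 50086. Another 18 of the 37 mitochondrial genes of the GENCODE M21 annotation were listed in neither table, namely mt-Nd3, mt-Nd4l, mt-Atp8 and 15 of 22 tRNA genes.

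Stretches of mitochondrial sequence recur in the nuclear genome, and their share differed between these genes. A search chosen after these values were seen counted, for each mitochondrial transcript, the stretches of 50 bases that occur letter for letter in a transcript annotated outside the mitochondrial genome. All 635 stretches of mt-Co2 did so, as did 99.5% of mt-Atp6, 99.9% of mt-Co3, 98.0% of mt-Nd3 and 98.8% of mt-Nd4l. The share was 62.2% for mt-Nd4, 51.1% for mt-Co1, 8.19% for mt-Nd2, 7.61% for mt-Nd5 and 1.04% for mt-Rnr2. No stretch of mt-Rnr1, mt-Nd1, mt-Nd6, mt-Cytb or any tRNA gene occurred in such a transcript. Nuclear sequence outside annotated transcripts was not searched, so this does not show that these genes have no nuclear copy. The 5 genes with 98.0% or more were either listed below 4 in every library or not listed, while mt-Nd4 and mt-Co1, with 62.2% and 51.1%, were well above 0. The gene mt-Atp8, also not listed, had no stretch in an annotated transcript. Most of it lies between mt-Co2 and mt-Atp6, whose copies Gm28661 and Gm10925 start at 24614885 and end at 24614651 on chromosome 1. Whether the sequence between these copies matches mt-Atp8 was not tested. Most matches lie in 1 block of pseudogenes on the minus strand of chromosome 1 between 24611535 and 24616197 (GRCm38). The pseudogenes of this block were not listed in either table, except Gm10222, a copy of mt-Nd4l, which ranged from 0 to 0.6 in ibrutinib. Reads were counted on GENCODE M2, and whether it held all these pseudogenes was not checked. A pseudogene that is not listed may thus not have been counted at all. With windows of 36, 75 or 100 bases the share of mt-Co2 stayed at 99.5% or more, while that of mt-Co1 went from 59.7% to 30.8%. Read length and the handling of reads that match 2 places are not given in the sources used here, so the part of these copies in the low values was not tested.

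The first 90 bases of mt-Co2 and of its 2 nuclear copies are shown as GENCODE M21 gives them (GRCm38, 5′ to 3′ on the coding strand) since they show how little separates them. Capitals mark bases that differ from mt-Co2. The copy Gm28661 (chr1:24614885-24615565, minus strand) had no difference in this stretch, and Gm13341 (chr2:22587291-22587962, minus strand) had 2.
mt-Co2: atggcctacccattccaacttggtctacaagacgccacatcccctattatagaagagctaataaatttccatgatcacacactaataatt
Gm28661: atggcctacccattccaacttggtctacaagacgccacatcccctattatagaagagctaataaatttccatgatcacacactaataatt
Gm13341: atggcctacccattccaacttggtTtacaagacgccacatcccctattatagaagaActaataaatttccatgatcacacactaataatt

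For comparison, mt-Co1 and its copy Gm13340 (chr2:22588103-22589647, minus strand) differed at 3 of these 90 bases, again in capitals. Over the whole transcript 411 of 1496 stretches of mt-Co1 occurred in Gm13340 and 430 in Gm29216. The listed values of Gm13340 were 2.2 to 10.1 in DMSO and 2 to 16.4 in ibrutinib, far below those of mt-Co1.
mt-Co1: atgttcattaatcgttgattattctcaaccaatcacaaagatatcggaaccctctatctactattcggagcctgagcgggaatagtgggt
Gm13340: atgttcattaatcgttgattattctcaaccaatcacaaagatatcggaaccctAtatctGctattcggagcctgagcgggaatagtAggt

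**Figure D2:**
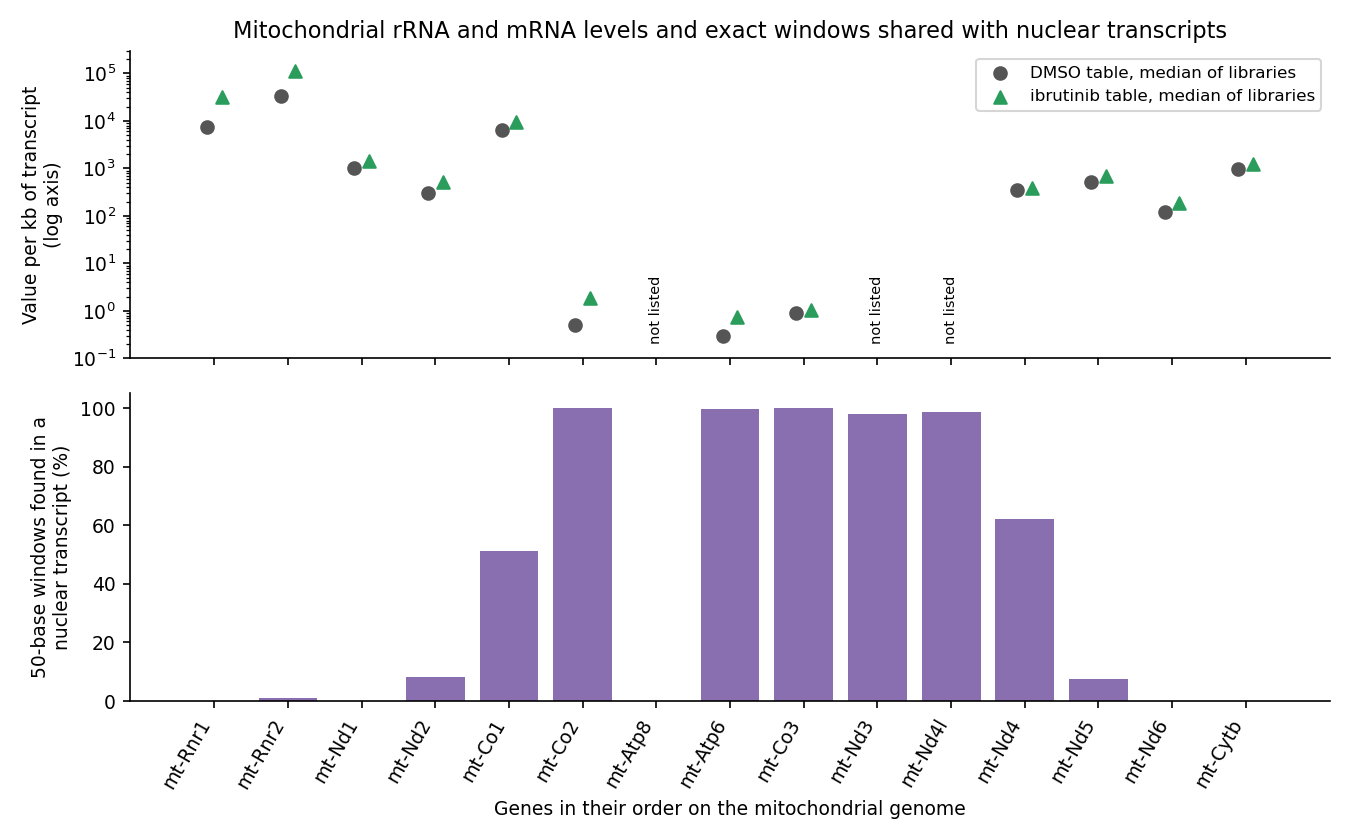
Upper panel, median value per kb of transcript (log axis) of each mitochondrial rRNA and mRNA gene over 8 DMSO libraries (circles) and 7 ibrutinib libraries (triangles), in genome order. Lower panel, percentage of 50-base windows that occur exactly in a nuclear transcript; mt-Co2, mt-Atp6 and mt-Co3, at 99.5% or more, lie near 1 per kb, and mt-Co1, at 51.1%, lies at 6433 per kb in DMSO.

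Few tRNA genes were listed, and their values were low. The highest single values were those of mt-Tt, the threonine tRNA next to mt-Cytb (chrM:15289-15355), although its ibrutinib median of 3.7 was below those of mt-Ti (7.7) and mt-Tw (4.8). Its DMSO values were 31.5, 5.4 and 2.3 in Eμ-TCL1 replicates 2, 3 and 4 and 2.9, 0.9, 9.9, 4.2 and 22.5 in Eμ-TCL1;p53R172H/+ replicates 1 to 5. In ibrutinib it was 23.1, 3.7 and 2.0 in Eμ-TCL1 replicates 1, 3 and 4 and 1.9, 2.7, 6.8 and 12.7 in Eμ-TCL1;p53R172H/+ replicates 1, 3, 4 and 5. The highest libraries were thus the myeloid-rich Eμ-TCL1 library of each table, and the genotypes overlapped. The isoleucine tRNA mt-Ti ranged from 1.6 to 12.2 in DMSO and from 3 to 14.8 in ibrutinib, and the tryptophan tRNA mt-Tw from 1.1 to 5.1 and from 1.5 to 13.7. The other 4 tRNA genes lay between 0 and 3.6 in every library, where the rounding of the values to 0.1 is a visible part of the value.

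In the test across all genes, mitochondrial genes did not differ between genotypes at the threshold. In DMSO, limma called 0 of 19 mitochondrial genes at an adjusted p under 0.05, against 0.0121% of all genes, and 0 had an unadjusted p under 0.05, against 8.17% of all genes. In ibrutinib it called 0 of 18, against 0.0% of all genes, and 0 had an unadjusted p under 0.05, against 12.0% of all genes. No mitochondrial gene had values that did not overlap between genotypes, while 6.45% of all genes did so in DMSO and 12.7% in ibrutinib. Log2 changes of Eμ-TCL1;p53R172H/+ relative to Eμ-TCL1, on the scale of the value plus 1, ranged from -0.58 for mt-Co3 to 0.84 for mt-Nd2 in DMSO and from -1.12 for mt-Nd6 to 0.44 for mt-Ti in ibrutinib. Their median was -0.07 in DMSO, beside 0.04 over all genes, and 0.01 in ibrutinib, beside -0.05 over all genes. Over all 18 genes in both tables, the interaction of genotype and treatment called 0 genes and 0 at an unadjusted p under 0.05, beside 0.0% and 0.523% of all genes (0.176% higher and 0.347% lower). A p that misses the threshold does not show that the genotypes were alike, since standard errors were large.

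The value of mt-Rnr2 shows this. In DMSO it was 237191, 51295 and 29469 in Eμ-TCL1 replicates 2, 3 and 4, and 31780, 52253, 70781, 41638 and 76914 in Eμ-TCL1;p53R172H/+ replicates 1 to 5. In ibrutinib it was 179659, 348901 and 53468 in Eμ-TCL1 replicates 1, 3 and 4, and 36217, 128265, 374599 and 472072 in Eμ-TCL1;p53R172H/+ replicates 1, 3, 4 and 5. The log2 change was -0.45 (standard error 2.68, limma adjusted p = 0.963) in DMSO and 0.18 (standard error 7.24, limma adjusted p = 0.992) in ibrutinib. These standard errors come from the variance trend of the fit, which few genes define at such levels, so this test says little of mt-Rnr2. Without the trend, an alternative chosen after seeing the data, they were 0.64 and 1.01, with adjusted p = 0.813 and 0.947. The trend also widened the standard errors of the other most abundant genes. With and without it, that of mt-Rnr1 was 1.07 and 0.78 in DMSO and 2.13 and 1.17 in ibrutinib. That of mt-Co1 was 0.93 and 0.38 in DMSO and 1.47 and 0.78 in ibrutinib. The log2 change of mt-Rnr1 was -0.06 in DMSO and 0.28 in ibrutinib, that of mt-Co1 was -0.37 and 0.02, that of mt-Nd6 was -0.14 and -1.12, and that of mt-Cytb was 0.25 and 0.15. The DMSO signs of mt-Rnr1, mt-Rnr2, mt-Co1 and mt-Nd6 reversed without the 3 libraries that stood apart, to 0.85, 0.65, 0.10 and 1.50, and the signs of mt-Rnr1, mt-Rnr2, mt-Co1 and mt-Cytb in ibrutinib depended on single libraries. That fit of 5 DMSO libraries called 0 of 19 mitochondrial genes, beside 0.0729% of all genes, and 4 had an unadjusted p under 0.05, beside 17.1% of all genes. These were mt-Nd2, mt-Nd4, mt-Nd5 and mt-Nd6, all higher in Eμ-TCL1;p53R172H/+, with log2 changes of 1.21, 1.20, 1.40 and 1.50 and limma adjusted p of 0.258, 0.239, 0.227 and 0.170. With sample quality weights limma called 0 of 19, beside 4.88% of all genes, and 7 had an unadjusted p under 0.05, beside 25.2% of all genes.

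**Figure D3:**
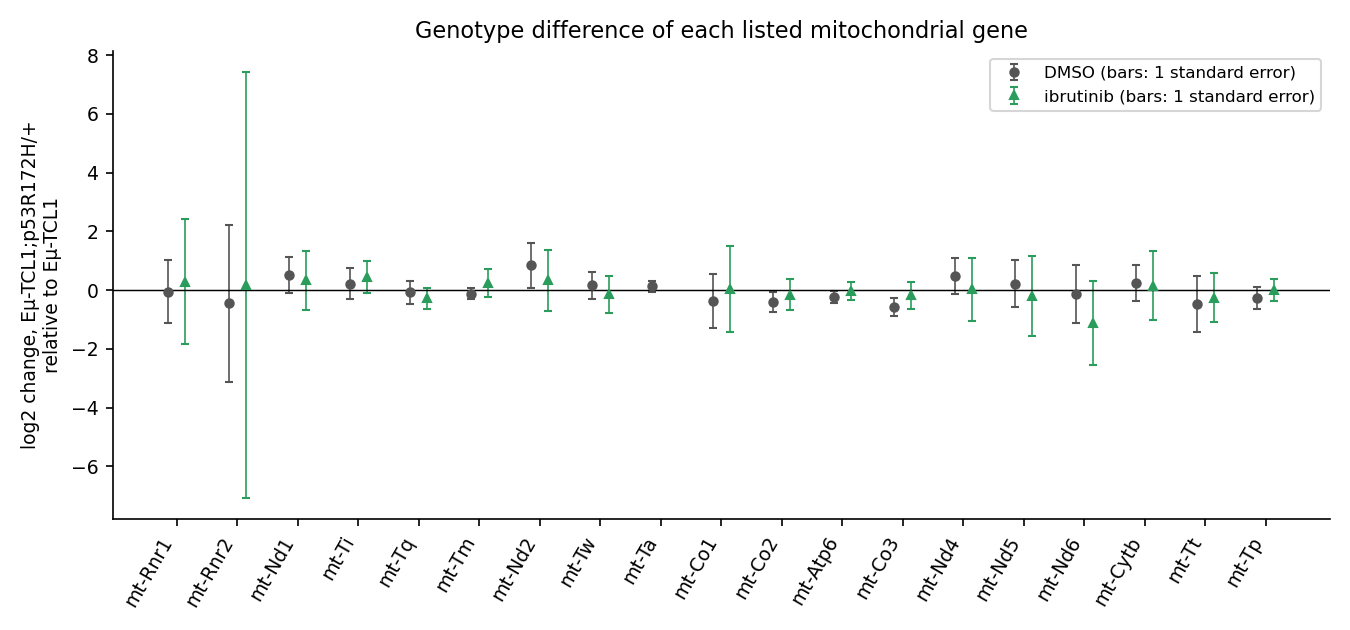
Log2 change of each listed mitochondrial gene, Eμ-TCL1;p53R172H/+ relative to Eμ-TCL1, in DMSO (circles) and ibrutinib (triangles), with bars of 1 standard error from limma. Changes lie between -1.12 and 0.84, and the bar of mt-Rnr2 in ibrutinib, 7.24 each way, reflects the variance trend. The trend also widened the bars of mt-Rnr1 and mt-Co1.

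Exact permutation tests of 4 shares and 3 ratios in each table were two-sided and adjusted over all 14. With 56 and 35 possible arrangements of the genotype labels they cannot give a p under 0.0179 in DMSO and 0.0286 in ibrutinib. None passed, with adjusted p between 0.862 and 0.893. The lowest unadjusted exact permutation p was 0.0857, for the log2 ratio of mt-Nd6 to mt-Cytb in ibrutinib, which was -1.32 lower in Eμ-TCL1;p53R172H/+ (-5.30 ± 0.687, SD, n = 4) than in Eμ-TCL1 (-3.98 ± 1.07, SD, n = 3). It was -0.997 without Eμ-TCL1;p53R172H/+ replicate 1, -0.75 without Eμ-TCL1 replicate 1 and -0.42 without both. In DMSO the same difference was -0.40, and it was 0.65 without the libraries that stood apart.

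This ratio sets the mRNA of 1 strand against its neighbour on the other. It was 0.144, 0.0340 and 0.0389 in Eμ-TCL1 replicates 2, 3 and 4 and 0.0206, 0.0412, 0.0483, 0.0439 and 0.0877 in Eμ-TCL1;p53R172H/+ replicates 1 to 5 in DMSO. In ibrutinib it was 0.141, 0.0565 and 0.0323 in Eμ-TCL1 replicates 1, 3 and 4 and 0.0128, 0.0307, 0.0272 and 0.0387 in Eμ-TCL1;p53R172H/+ replicates 1, 3, 4 and 5. The highest ratio of each table belonged to the myeloid-rich Eμ-TCL1 library, and the lowest to the T-cell-rich Eμ-TCL1;p53R172H/+ replicate 1. The other T-cell-rich library in DMSO, Eμ-TCL1;p53R172H/+ replicate 2, was not low, at 0.0412. Whether reads were counted by strand is not given in the sources used here, so reads of mt-Nd6 and of the precursor on the opposite strand cannot be told apart.

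The rRNAs are made from the same precursor, mt-Rnr1 first, and their ratio also varied. The value of mt-Rnr2 was 7.21, 10.1 and 8.40 times that of mt-Rnr1 in Eμ-TCL1 replicates 2, 3 and 4 and 8.41, 2.56, 10.4, 5.88 and 8.48 times in Eμ-TCL1;p53R172H/+ replicates 1 to 5 in DMSO. In ibrutinib it was 6.48, 4.51 and 8.48 times in Eμ-TCL1 replicates 1, 3 and 4 and 7.44, 4.28, 4.15 and 8.76 times in Eμ-TCL1;p53R172H/+ replicates 1, 3, 4 and 5. Per base of transcript the ratio was 1.55 to 6.26 in DMSO and 2.51 to 5.29 in ibrutinib, so mt-Rnr2 was above mt-Rnr1 in all 15 libraries. The lowest ratio was that of Eμ-TCL1;p53R172H/+ replicate 2 in DMSO, a T-cell-rich library in which the nuclear gene Yam1 stood at 173268, against at most 2638 in the other DMSO libraries.

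**Figure D4:**
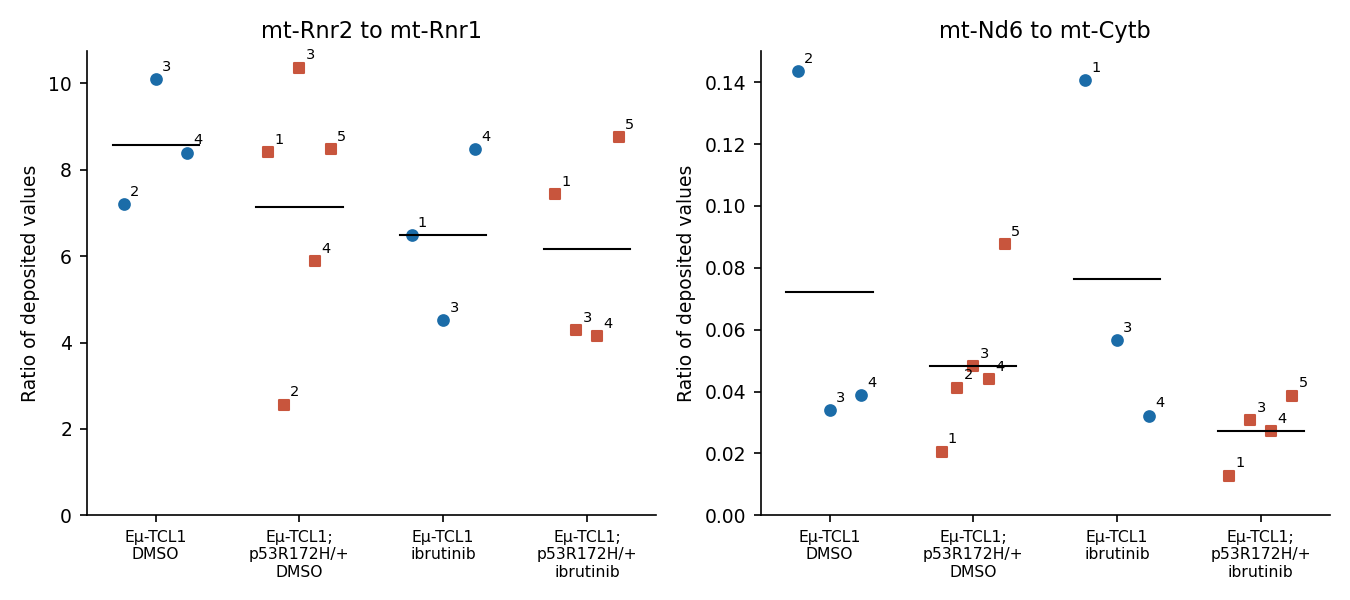
Ratio of mt-Rnr2 to mt-Rnr1 and of mt-Nd6 to mt-Cytb (deposited values, linear axes from 0) in each library, by genotype and treatment. Points carry the replicate number and lines are group means; the 2 highest mt-Nd6 ratios, 0.144 and 0.141, are Eμ-TCL1 replicate 2 in DMSO and Eμ-TCL1 replicate 1 in ibrutinib.

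Shares of mt-Rnr1, mt-Co1 and mt-Nd6 were correlated with that of mt-Rnr2 across libraries, and Pearson r was positive in both tables. The other mitochondrial genes were not tested in this way, so nothing is said of them here. In DMSO (n = 8) the exact permutation test gave Pearson r = 0.940 for mt-Nd6 (p = 0.000893, adjusted p = 0.00298), with Spearman rho = 0.929 (p = 0.00223, adjusted p = 0.00833). For mt-Co1 it gave r = 0.753 (p = 0.0101, adjusted p = 0.0201) and rho = 0.619 (p = 0.115, adjusted p = 0.115). For mt-Rnr1 it gave r = 0.865 (p = 0.0450, adjusted p = 0.0540) and rho = 0.690 (p = 0.0694, adjusted p = 0.104), and r fell to 0.0674 without the 2 libraries farthest from the median mt-Rnr2 share, Eμ-TCL1 replicate 2 and Eμ-TCL1;p53R172H/+ replicate 5. The libraries kept included Eμ-TCL1;p53R172H/+ replicate 2, which had the lowest ratio of mt-Rnr2 to mt-Rnr1 in DMSO, 2.56. Its part in this fall was not tested, so the fall cannot be put down to the 2 libraries left out alone. Without those 2 libraries r was 0.943 for mt-Co1 and 0.753 for mt-Nd6.

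In ibrutinib (n = 7) the exact permutation test gave r = 0.891 for mt-Co1 (p = 0.000992, adjusted p = 0.00298), with rho = 0.964 (p = 0.00278, adjusted p = 0.00833). For mt-Rnr1 it gave r = 0.843 (p = 0.0179, adjusted p = 0.0268) and rho = 0.857 (p = 0.0238, adjusted p = 0.0476), and for mt-Nd6 r = 0.660 (p = 0.107, adjusted p = 0.107) and rho = 0.714 (p = 0.0881, adjusted p = 0.106). Without the 2 farthest libraries, Eμ-TCL1;p53R172H/+ replicates 1 and 5, r was 0.895, 0.976 and 0.536. These were 6 correlations in all, shares of 1 library have a common denominator, and both genotypes were pooled. No genotype group held the 6 libraries taken as the minimum for a correlation of its own.

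**Figure D5:**
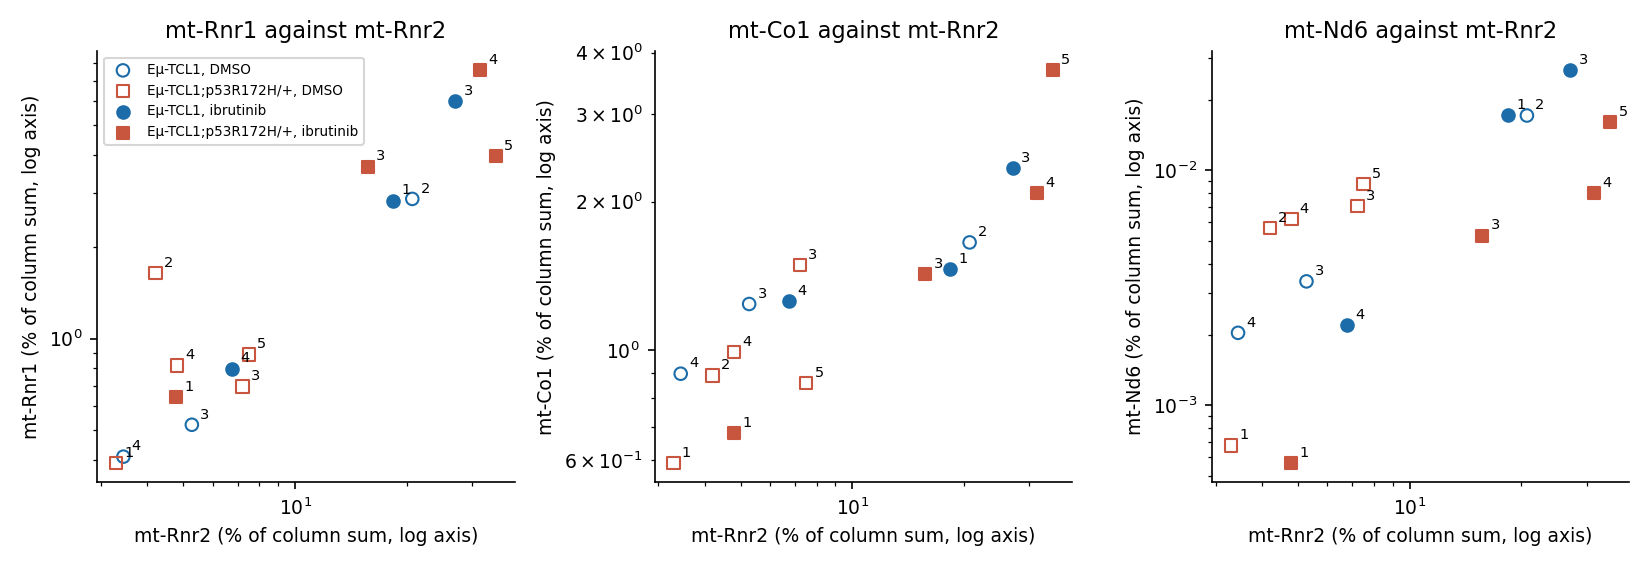
Share of mt-Rnr1, mt-Co1 and mt-Nd6 against the share of mt-Rnr2, in percent of the column sum on log axes, 1 point a library with its replicate number (open, DMSO; filled, ibrutinib). Eμ-TCL1 replicate 2 in DMSO and Eμ-TCL1 replicate 1 in ibrutinib lie side by side, at mt-Rnr2 shares of 20.7% and 18.4%.

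The tables were normalized separately and share no library, so ibrutinib and DMSO were set side by side without a test. For the 6 replicate numbers of a genotype present in both tables, the rRNA share was higher in ibrutinib in 6 of 6, by 1.47 to 6.95 times. It was 5.79% and 33.0% in Eμ-TCL1 replicate 3, and 5.61% and 39.0% in Eμ-TCL1;p53R172H/+ replicate 4, in DMSO and ibrutinib. The mRNA share was higher in 6 of 6, by 1.02 to 4.07 times, and the tRNA share in 4 of 6. Among single genes, mt-Rnr1, mt-Rnr2, mt-Nd1, mt-Nd2, mt-Nd5 and mt-Cytb were higher in 6 of 6, whereas mt-Tq was higher in 0 of 6 and mt-Tt in 1 of 6. Values of mt-Tq were low, 0.7 to 3.5 in DMSO and 0.5 to 3 in ibrutinib, and 2.0 in both for Eμ-TCL1;p53R172H/+ replicate 4. All mitochondrial genes together held more of the column sum in ibrutinib in 6 of 6, which lowers the share of a gene with an unchanged value. The same count was made neither over all genes nor as a share of the sum over genes that are not mitochondrial. The labels do not say that a number marks 1 mouse, and Eμ-TCL1;p53R172H/+ replicate 3 had Xist of 1491 in DMSO and 1 in ibrutinib, so that number did not. B-cell marker sums were also lower in ibrutinib for all 6 numbers, such as 2957 in DMSO and 1130 in ibrutinib for Eμ-TCL1;p53R172H/+ replicate 5, and their part in the shares was not tested. The myeloid-rich Eμ-TCL1 libraries, numbered 2 in DMSO and 1 in ibrutinib, had rRNA shares of 23.6% and 21.2% and mRNA shares of 2.15% and 1.97%.

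Nuclear genes for the same complexes and for mitochondrial gene expression were read alongside. Of 76 nuclear subunits of the respiratory complexes and ATP synthase, limma called 0 in DMSO, with 0 at an unadjusted p under 0.05, and a median log2 change of 0.15. Of 76 mitochondrial ribosomal proteins it called 0, with 4 higher and 0 lower in Eμ-TCL1;p53R172H/+ at an unadjusted p under 0.05 and a median of 0.30. Of 51 genes of mitochondrial transcription, RNA processing and translation it called 0, with 4 higher and 0 lower and a median of 0.30. The unadjusted share over all genes was 3.52% higher and 4.65% lower. In ibrutinib the 3 lists had 0 called, with 1 higher and 3 lower, 3 higher and 2 lower, and 4 higher and 0 lower at an unadjusted p under 0.05, beside 5.69% higher and 6.32% lower over all genes. Their medians were -0.14, 0.07 and 0.12. Without the 3 DMSO libraries that stood apart the DMSO medians were 0.10, 0.07 and 0.13.

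The factors that make and hold mitochondrial RNA were among these. Tfam packages the mitochondrial genome and is needed to transcribe it. Its DMSO mean over Eμ-TCL1 libraries was 38.1 ± 15.2 (SD, n = 3), beside 51.6 ± 7.02 (SD, n = 5) over Eμ-TCL1;p53R172H/+ libraries (limma adjusted p = 0.645). The mitochondrial RNA polymerase Polrmt was 23.4 ± 8.54 and 34.7 ± 10.4, the transcription factor Tfb2m 9.5 ± 1.66 and 15.3 ± 2.59, and the mRNA-stabilizing protein Lrpprc 110 ± 54.1 and 147 ± 67.1, with adjusted p between 0.587 and 0.747. In ibrutinib Tfam was 24.9 ± 7.56 (SD, n = 3) and 32.5 ± 4.43 (SD, n = 4), with adjusted p between 0.519 and 0.694 for these 4 genes in limma.

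The genes with the lowest p of each list are named for that reason alone. In DMSO they were Atp5j and Ndufa3, Mrps5 and Mrpl41, and the elongation factor Gfm1 with Tfb2m, with log2 changes of 0.40, 0.49, 0.88, 0.84, 0.69 and 0.63 and limma adjusted p of 0.543 or more. In ibrutinib they were the complex I subunit Ndufb11 and Atp5j, Mrpl23 and Mrpl47, and Fastkd2 and the rRNA methyltransferase Mrm1, with log2 changes of -0.51, 0.43, 0.83, 0.89, 0.70 and 0.81 and limma adjusted p of 0.269 or more.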

How the data were processed

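RNA of 15 libraries (3 and 5 in DMSO, 3 and 4 in ibrutinib) was analysed. Per the labels and the methods, the authors aligned reads with TopHat2 2.0.12, used SAMtools 0.1.19, counted them per gene with HTSeq on GENCODE M2 (GRCm38), removed lowly expressed genes and scaled the counts in edgeR. The deposited signal values are thus normalized CPM (effective library sizes, set separately in 2 tables), rounded to 0.1. Whole reads could not be recovered, so depth is unknown and no count test was run. Columns were mapped to samples by title, and all were used.

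Each table was fitted on its own in R 4.3.3, using limma 3.58.1 (eBayes with a trend) for the genotype difference on log2 of the value plus 1, over all genes, with Benjamini-Hochberg adjustment at 0.05. The interaction was fitted over all libraries for 15869 genes in both tables. It treated the libraries as independent, although the labels do not say whether cells of 1 mouse were used in both treatments. Shares, ratios and correlations were computed in Python 3.11.15 with scipy 1.17.1, with exact permutation tests. Nothing in the labels says that replicates came from separate mice, so p-values measure the spread between these samples. Lengths, coordinates and sequences come from GENCODE M21, also GRCm38. All rRNA and mRNA genes were named, tRNA genes with a mean of at least 5 in a table, Tfam, Polrmt, Lrpprc, Tfb2m, and the 2 nuclear genes with the lowest p per list. The members and lists were chosen with earlier results of these data known. The window search, the fit without a trend, the sum without Yam1, the ratios between tables and leaving out Eμ-TCL1 replicate 1 in ibrutinib were chosen after seeing the data. The scripts were tested on simulated data.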

Additional observations from a re-analysis of the deposited data

Results flagged for a closer look

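In Eμ-TCL1;p53R172H/+ libraries, 49 sets of values were searched for a library far from the others, and 8 had one. Chance alone singles out about 1 in 20 such sets, and the sets are not independent. In DMSO there were 7. The share of mt-Nd2 was highest in replicate 2, at 0.116% against a group median of 0.0359%, in the library with Yam1 at 173268. The shares of mt-Nd4 and mt-Nd5 were lowest in the T-cell-rich replicate 1, at 0.0147% and 0.0162% against medians of 0.0526% and 0.0941%. Replicate 2, also T-cell-rich, held 0.0586% and 0.0941%, the highest mt-Nd4 share of the group and the median mt-Nd5 share. The share of mt-Ti was highest in replicate 5, at 0.00119%, a value of 12.2 where the other 4 libraries held 2.4 to 4.5. The log2 ratio of mt-Rnr2 to mt-Co1 was also highest in replicate 5, at 3.13. Near the rounding of 0.1, the share of mt-Tm was highest in replicate 5 (8.78e-05%, a value of 0.9 against 0.4 to 0.6) and that of mt-Co2 in replicate 3 (0.000112%, a value of 1.1 against 0.2 to 0.4). In ibrutinib the share of mt-Co3 was highest in replicate 5, at 0.000250%, a value of 3.4 against 0.4 to 0.8. The Eμ-TCL1 groups of 3 were too small for this search. No explanation was tested.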

How the results depend on the processing

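Limma called 0 mitochondrial genes in either table or in the interaction under every alternative run. The log2 changes were less stable. Over 17 alternatives in DMSO, 46 of 315 values of the 19 genes changed sign, and over 16 in ibrutinib 72 of 282 values of the 18 genes, for 16 and 18 genes at least once. Among these, the fit without a trend leaves log2 changes as they are. Of these sign changes, those of mt-Rnr1, mt-Rnr2, mt-Co1, mt-Nd6 and mt-Cytb are given one by one, a choice made after these results were seen. The cause of the changes below was not tested.

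Without the libraries that stood apart in DMSO, the genotype difference was 2.49 percentage points for rRNA and 0.00142 for tRNA, and for shares of mt-Rnr2, mt-Rnr1, mt-Co1 and mt-Nd6 it was 2.15, 0.333, 0.0440 and 0.00464. The log2 ratio of mt-Rnr2 to mt-Co1 then differed by 0.55 and that of mt-Nd6 to mt-Cytb by 0.65, and the log2 changes of mt-Rnr1, mt-Rnr2, mt-Co1 and mt-Nd6 were 0.85, 0.65, 0.10 and 1.50. In that fit of 5 libraries mt-Nd2, mt-Nd4, mt-Nd5 and mt-Nd6 had an unadjusted p under 0.05, beside 17.1% of all genes, with adjusted p of 0.170 or more in limma. With sample quality weights in DMSO these 4 log2 changes were 0.92, 0.81, 0.29 and 1.47, the median of the mRNAs was 1.13 instead of 0.04, and 2 mitochondrial ribosomal proteins and 1 gene of the expression machinery were called, beside 4.88% of all genes. In ibrutinib, quantile normalization gave -0.10 for mt-Co1. Leaving out Eμ-TCL1;p53R172H/+ replicate 1 and Eμ-TCL1 replicate 1 in ibrutinib gave 0.30 for mt-Nd6, and 12.1 percentage points for the rRNA share.

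A replicate block on numbers present in both genotypes gave log2 changes of 0.25 for mt-Rnr1 and 0.39 for mt-Nd6 in DMSO, and of -0.014, -0.32, -0.51 and -0.41 for mt-Rnr1, mt-Rnr2, mt-Co1 and mt-Cytb in ibrutinib. It changed no call. The numbers were not taken to pair the samples, since same-numbered libraries had correlations of deviations of 0.192, 0.284 and 0.0476 in DMSO and -0.0459, -0.198 and -0.175 in ibrutinib.

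Without the 2 libraries farthest from the median, r was 0.753 for mt-Nd6 in DMSO (adjusted p = 0.104 by the exact permutation test) and 0.976 and 0.895 for mt-Rnr1 and mt-Co1 in ibrutinib (adjusted p = 0.05 and 0.0833 by the exact permutation test).

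Leaving out 1 library at a time moved genotype differences across 0. In DMSO the range was -7.57 to 1.05 for the share of mt-Rnr2, -0.810 to 0.420 for mt-Rnr1 and -0.00457 to 0.00298 for mt-Nd6, -0.39 to 0.47 for log2 mt-Rnr2 to mt-Co1 and -0.78 to 0.26 for log2 mt-Nd6 to mt-Cytb. Log2 changes in DMSO ranged from -0.68 to 0.93 for mt-Rnr1, -1.09 to 0.42 for mt-Rnr2, -0.85 to 0.86 for mt-Nd6 and -0.20 to 0.66 for mt-Cytb. In ibrutinib the range was -1.04 to 9.90 for the share of mt-Rnr2, -0.452 to 2.15 for mt-Rnr1 and -0.290 to 0.711 for mt-Co1, -0.35 to 0.11 for log2 mt-Rnr2 to mt-Rnr1 and -0.23 to 0.38 for log2 mt-Rnr2 to mt-Co1. Log2 changes in ibrutinib ranged from -0.67 to 1.14 for mt-Rnr1, -0.56 to 0.92 for mt-Rnr2, -0.51 to 0.58 for mt-Co1 and -0.63 to 1.12 for mt-Cytb.

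Depth is unknown, and each Eμ-TCL1 group held 3 libraries.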
